A study of Rattus norvegicus with 18 samples.

Results

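The comparison described here set cortex of rats 6 h after middle cerebral artery occlusion, given saline, against cortex of sham rats at the same time, on 6 of the 18 arrays of a study of erythropoietin in cerebral ischemia. Its members were chosen by their labels: the 3 arrays of ischemic cortex with saline at 6 h and the 3 arrays of sham cortex at 6 h. All were labelled brain cortex of male rats of the outbred strain Crl:CD(SD)BR, with no age given, and RNA of each was labelled with Cy3 and hybridised to a one-colour Agilent whole-genome array. The sham label gives no treatment, so occlusion and saline cannot be told apart, and the labels say neither how long the artery stayed closed nor which part of the cortex was taken. The study also has arrays at 2 h and arrays of ischemic rats given erythropoietin (EPO), whose dose the labels do not give. The labels do not state that each array is a separate animal, so the p-values measure only the spread between these samples, which may be technical.

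The middle cerebral artery supplies the lateral cortex and the striatum, and its occlusion starves them of oxygen and glucose. In the hours that follow, neurons depolarise and transcribe immediate-early genes, and damaged proteins release the heat shock factor that switches on chaperone genes. Microglia and endothelium activate NF-kB, a family of transcription factors that switch on chemokines, cytokines and the adhesion molecules by which leukocytes leave the blood, and the transport and junction genes of the blood-brain barrier belong to the same endothelium.

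Each level below is the log2 signal of a probe minus the 75th percentile of its array, so 0 is a bright probe and negative values are dimmer ones. Each change is the log2 difference of ischemia minus sham with its standard error (SE), n = 3 arrays in each group, and a gene is called where the Benjamini-Hochberg adjusted p of limma, over 28637 probes, is below 0.05. Each gene is read from 1 probe, and 12432 named genes were tested. Between 61.2 and 75.4% of probes were well above background on the ischemic arrays, against 64.5 to 76.7% on the sham arrays. The arrays differ in the slope of their spike-in transcripts, which is above 0.9 on ischemic arrays 1 and 3 and sham array 1 and below it on the others. On these 6 arrays the first principal component held 77.6% of the variance and separated the arrays by that slope, and the second held 12.9% and separated ischemia from sham.

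Ischemic cortex showed large rises in a small set of genes and small falls in a slightly larger set. Of the 12432 genes, 766 rose (6.16%) and 846 fell (6.81%). Over the 28637 probes, 1372 rose (4.79%) and 1792 fell (6.26%). Rises of at least 2-fold numbered 164 (1.32%), and falls of that size 15 (0.121%). The ischemic and sham arrays did not overlap for 4412 genes (35.5%). The median change over all genes was -0.09, and the median SE over probes was 0.13. The balance of rises and falls depended on the scaling. Rises made up 47.5% of the called genes as reported, 43.9% with the slope class as a block (839 rises or 6.75% of genes and 1074 falls or 8.64%), 58.4% with quantile normalization and 71.5% in the authors' value table without scaling. With the array median in place of the percentile the median over all genes moved by 0.17 to 0.08, and 175 genes rose and 5 fell. Without all arrays of slope above 0.9, in any group, 105 genes rose and 15 fell, but that fit holds 1 ischemic array against 2 sham arrays at 6 h, and takes the spread from the other groups. Leaving out 1 array at a time gave 1749 to 2226 called probes in place of 3164, and a fit of the 6 arrays alone 1343. In bulk cortex, fewer cells of a type and less RNA per cell cannot be told apart.

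Of the genes singled out by rule, 203 were called, 147 higher and 56 lower. On both slides that held an ischemic and a sham array, all 147 were above 0 and all 56 below 0. The same arrays gave the calls, so these signs describe the genes and add no support. No alternative processing turned the direction of any of the 203. The call held in every alternative that could be run for 42 of them, 24 alternatives for 33 and 23 for 9 whose probes were not well above background on every array. It held for 155 when 4 alternatives were set aside. These were the fits without the arrays of slope above 0.9, with the array median, of the 6 arrays alone and of the authors' value table. They lowered the number of called probes most, and in them the named genes lost the most calls, so 155 leaves out the least favourable settings. The 42 comprise Adm, Atf3, Ccl2, Ccl3, Ccl4, Ccl12, Ccn1, Chac1, Cxcl1, Cxcl2, Cxcl10, Gadd45b, Gadd45g, Gbp2, Gdf15, Hbegf, Hmox1, Hspa1a, Hspb1, Icam1, Ier2, Ier3, Il1b, Isg15, Mcl1, Myc, Nfil3, Plat, Plau, Plk3, Ppp1r15a, Procr, Sdc1, Slc16a3, Tap1, Tfpi2, Timp1, Tnfrsf12a, Trib3 and Zfp36, all higher, and Degs2 and Srarp, both lower.

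**Figure D1:**
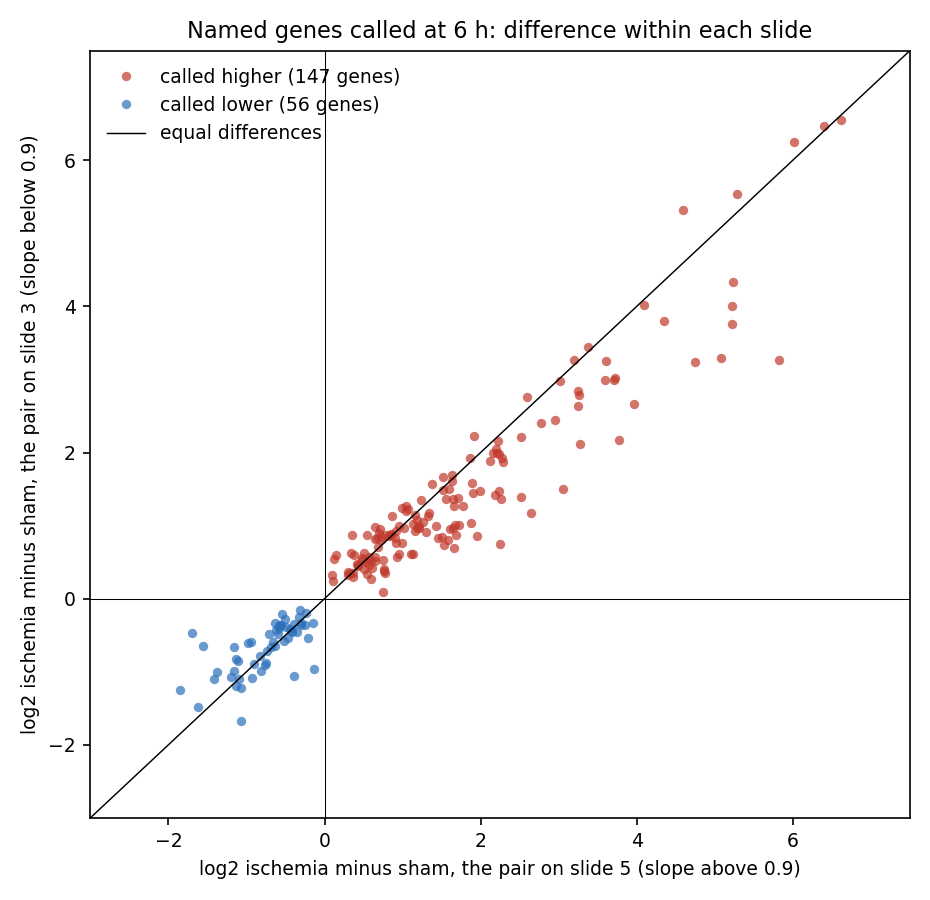
The 203 called genes named by rule, each plotted by its log2 difference between the ischemic and the sham array of slide 5 (x axis, both with slopes above 0.9) and of slide 3 (y axis, both below 0.9). All 147 genes called higher lie above 0 on both axes (lowest 0.10 on each slide) and all 56 called lower lie below 0 (highest -0.14 on slide 5 and -0.15 on slide 3), signs that follow largely from the choice of genes called on these arrays.

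Hspa1a, the inducible 70 kDa heat shock chaperone that refolds damaged proteins, had the largest rise among the genes ranked by the rule and well above background on all 6 arrays. It stood at 5.89, 5.92 and 5.93 on the ischemic arrays, against -0.69, -0.64 and -1.06 on the sham arrays, a rise of 6.71 ± 0.17 or 104-fold (adjusted p 1.4e-10). The ischemic arrays were nearly equal and lay far above every sham array. Hspb1, a small heat shock protein that holds unfolded proteins for refolding, stood at 1.87, 1.99 and 2.12 in ischemia, against -1.26, -1.45 and -1.65 in sham, and rose by 3.44 ± 0.13 (adjusted p 7e-09). Of 27 listed heat shock proteins and co-chaperones 24 were tested, and 13 rose and none fell, with a median change of 0.41 against -0.09 over all genes. The cytosolic co-chaperone Hsph1 rose by 1.08 ± 0.09, the mitochondrial chaperonin partner Hspe1 by 0.74 ± 0.09 and the J-domain protein Dnajb1 by 0.82 ± 0.12. Hsp90aa1, the inducible cytosolic Hsp90, rose by 0.49 ± 0.09. The constitutive family member Hspa8 differed between its 4 probes: the brightest was not called (0.11 ± 0.14, adjusted p 0.68), and 2 others rose by 0.32 ± 0.05 and 0.45 ± 0.08 (adjusted p 0.0023 and 0.0024).

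Heat shock factor binds repeats of the letters GAA in alternating orientation. The 250 bases before the start of Hspb1 are shown because this gene had the largest rise among the heat shock genes whose promoter sequence held the searched letters. They are from RefSeq (build GRCr8, chr12:26432302-26432551, minus strand), with matches to GAANNTTC in capitals.
Hspb1: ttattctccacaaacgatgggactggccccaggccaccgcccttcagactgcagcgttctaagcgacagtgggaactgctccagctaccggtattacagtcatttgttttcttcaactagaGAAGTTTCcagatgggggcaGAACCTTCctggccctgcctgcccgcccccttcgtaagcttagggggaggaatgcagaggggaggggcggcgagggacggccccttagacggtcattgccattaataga
There were 2 separate matches, the nearest 109 and the farthest 129 bases before the start. GAANNTTC or TTCNNGAA, which covers both strands, occurred in the same window of 3677 of 27457 promoters (13.4%). Among the heat shock genes that rose, 10 had a promoter sequence and 7 held the letters (Hspb1, Hsph1, Dnajb1, Hspe1, Dnaja1, Hspb8 and Hspd1). Of all tested members of the list, 20 had a promoter sequence and 12 held them. A match is a description of the sequence, not a binding site.

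Genes of the integrated stress and unfolded protein response, which slow translation and raise chaperones when the endoplasmic reticulum is overloaded, rose in part. Of 25 listed, 21 were tested, 6 rose and none fell, with a median of 0.20. Trib3, a pseudokinase transcribed under that response, stood at -0.38, -0.21 and -0.38 in ischemia, against -4.00, -3.46 and -3.43 in sham, and rose by 3.30 ± 0.23 (adjusted p 2.2e-06). The groups were far apart. Ppp1r15a (GADD34), which restores translation, rose by 1.69 ± 0.13, and Chac1, which degrades glutathione, by 1.41 ± 0.14. The transcription factor Ddit3 (CHOP) rose by 0.84 ± 0.08 and the endoplasmic chaperone Hspa5 (BiP) by 0.53 ± 0.08. Asns, the asparagine synthetase, was not called (-0.07 ± 0.06, adjusted p 0.58). The letters TGATGNAAT occurred in the promoter window of none of the 6 genes that rose, all of which had a sequence, and in 255 of 27457 promoters (0.929%).

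Among oxidant defence genes, of 26 listed 23 were tested, and 5 rose and 1 fell. Hmox1, heme oxygenase, which breaks down heme, stood at 1.64, 1.99 and 1.88 in ischemia, against -1.13, -0.99 and -1.22 in sham, and rose by 2.95 ± 0.17 (adjusted p 5.2e-07). Every ischemic array was above every sham array. Mt1, a metal-binding metallothionein, rose by 1.22 ± 0.14, and Srxn1, which repairs oxidised peroxiredoxins, by 1.27 ± 0.13. The transcription factor Nfe2l2 (Nrf2) rose by 0.45 ± 0.07, while its classical target Nqo1 was at 0.00 ± 0.08 (adjusted p 1).

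The AP-1 factors, dimers of Fos and Jun proteins that respond to calcium and stress, rose for 7 of 12 listed and tested and none fell, with a median of 0.94. Atf3, a stress-induced partner of Jun, stood at 2.20, 2.33 and 2.45 in ischemia, against -2.83, -3.21 and -3.31 in sham, and rose by 5.45 ± 0.37 or 43.7-fold (adjusted p 2.2e-06). Fos stood at 1.51, 2.08 and 2.30 in ischemia, against -0.95, -0.56 and -0.54 in sham, and rose by 2.65 ± 0.31. For both genes the groups lay well apart. Fosl1, which was above background on 1 of 3 sham arrays, rose by 3.81 ± 0.37, Junb by 1.35 ± 0.22 and Jun by 1.16 ± 0.12. Fosl2 was not called (0.27 ± 0.17, adjusted p 0.39).

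The other immediate-early factors were mixed: of 19 tested of 20 listed, 10 rose and 1 fell, with a median of 0.55. The activity-dependent neuronal factor Npas4, above background on 2 of 3 sham arrays, stood at -2.80, -1.43 and -1.61 in ischemia, against -5.32, -4.42 and -4.38 in sham, and rose by 2.76 ± 0.50 (adjusted p 0.0034). Klf10 rose by 1.53 ± 0.22, the growth regulator Myc by 1.52 ± 0.10, Ier2 by 1.44 ± 0.15 and Ier3 by 1.08 ± 0.09. Among the zinc-finger Egr factors, Egr2 rose by 1.37 ± 0.29 and Egr4 by 1.04 ± 0.21. Egr1 was not called, at 3.24, 3.34 and 3.69 in ischemia against 3.12, 3.30 and 3.25 in sham (0.20 ± 0.14, adjusted p 0.46), and neither was Egr3 (0.26 ± 0.23). The groups overlapped for both. None of the 3 Nr4a orphan receptors was called: Nr4a1 was at 0.55 ± 0.24, Nr4a3 at 0.06 ± 0.19 and Nr4a2 at 0.02 ± 0.09.

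Feedback inhibitors of the MAP kinases rose for 4 of 10 tested of 13 listed, none fell, and the median was 0.34. Without ischemic array 3 or sham array 3 the rises numbered 2. The phosphatase Dusp1 rose by 1.12 ± 0.14 and Dusp5 by 1.37 ± 0.28, while Dusp6 was not called (0.35 ± 0.16, adjusted p 0.2). Among activity-regulated synaptic genes, 10 of 19 tested of 20 listed rose and none fell, with a median of 0.42. Arc, which drives removal of glutamate receptors at active synapses, stood at 3.97, 3.84 and 4.21 in ischemia, against 2.70, 2.17 and 2.48 in sham, and rose by 1.56 ± 0.24 (adjusted p 0.0011). Bdnf, the neurotrophin of active neurons, stood at 0.73, 0.44 and 1.10 in ischemia, against -0.62, -0.57 and -0.77 in sham, and rose by 1.41 ± 0.20. The groups did not overlap for either. The synaptic pentraxin Nptx2 rose by 1.78 ± 0.24, the signalling regulator Rgs2 by 1.10 ± 0.13 and the inducible cyclooxygenase Ptgs2 by 1.47 ± 0.24. Besides Bdnf, of the 15 neurotrophins and receptors listed and tested, Gfra2 fell (-0.45 ± 0.09) and no other gene was called. That 1 rise and 1 fall stand beside 6.16% and 6.81% of all genes.

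**Figure D2:**
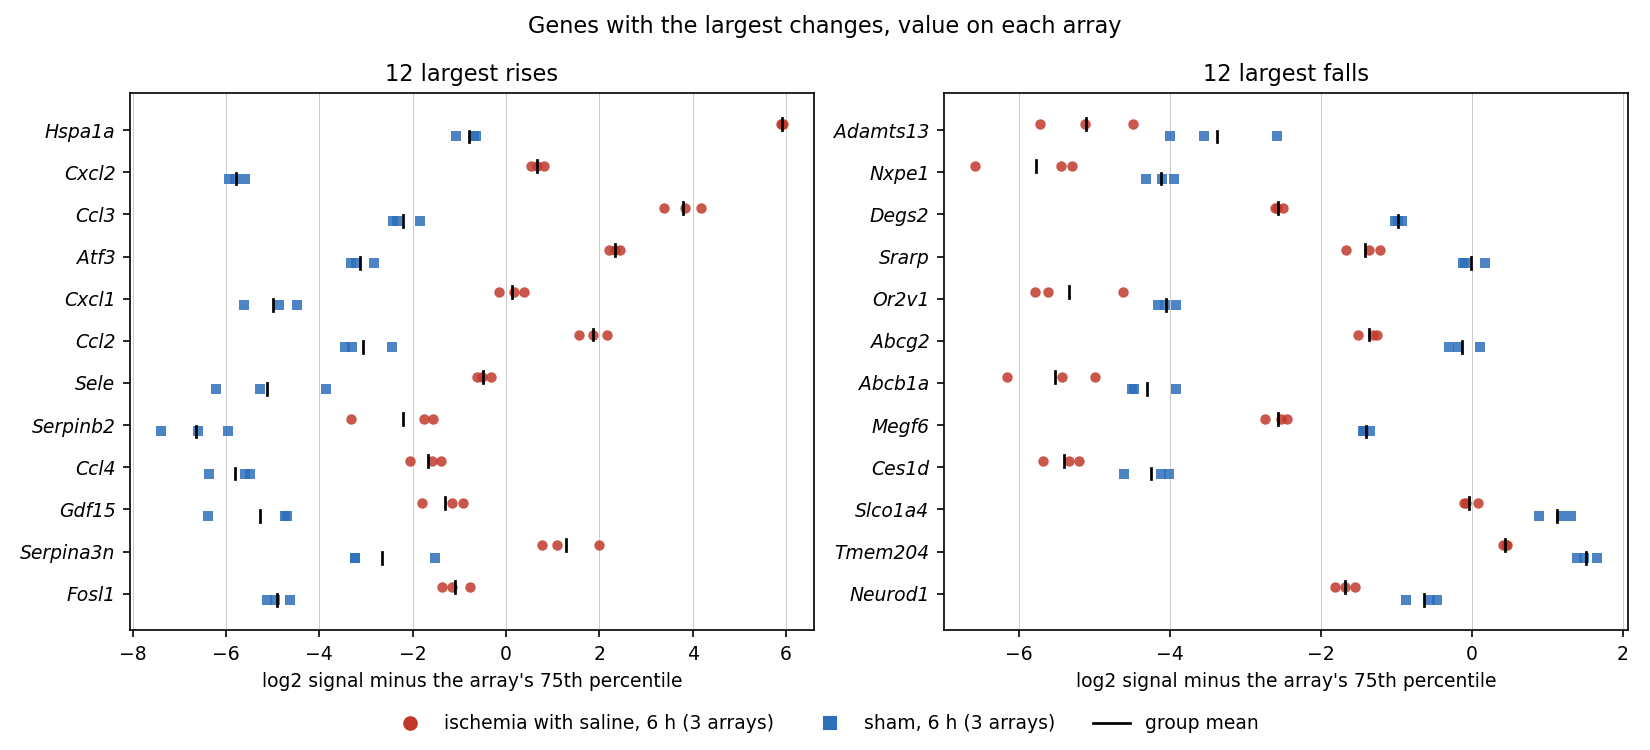
Levels on each array (log2 signal minus the array's 75th percentile, x axes) of the 12 genes with the largest rises (left) and falls (right), with ischemic arrays as red circles, sham arrays as blue squares and group means as black bars. Hspa1a spans 5.89 to 5.93 in ischemia against -1.06 to -0.64 in sham, a change of 6.71, while Adamts13 changed by -1.73. Cxcl2, Serpinb2 and Ccl4 were not well above background on any sham array, nor Nxpe1 and Ces1d on any ischemic array, so their plotted differences carry no exact size or rank.

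Chemokines, which attract leukocytes, held 5 of the 12 largest rises. Of 24 listed, 22 were tested, 10 rose and none fell, with a median of 0.75. Cxcl2, which attracts neutrophils, stood at 0.54, 0.65 and 0.81 in ischemia, against -5.59, -5.82 and -5.94 in sham, where it was not well above background on any array. It was at least 53.0-fold higher (adjusted p 1.1e-07). This bound sets the ischemic mean against the dimmest signal well above background on each sham array, or the probe's own signal where that is higher. Its relative Cxcl1 stood at 0.18, -0.14 and 0.38 in ischemia, against -4.85, -4.48 and -5.62 in sham with 2 of 3 arrays above background, and rose by 5.12 ± 0.33. For both genes every ischemic array was above every sham array by several log2 units.

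The CC chemokines that attract monocytes and macrophages moved the same way. Ccl3 stood at 3.39, 3.84 and 4.17 in ischemia, against -1.84, -2.42 and -2.34 in sham, and rose by 6.00 ± 0.36 or 63.9-fold (adjusted p 6.7e-07). Ccl2 stood at 1.56, 1.87 and 2.17 in ischemia, against -2.43, -3.45 and -3.30 in sham, and rose by 4.93 ± 0.36. In both, the dimmest ischemic array was far brighter than the brightest sham array. Ccl4 and Ccl12, not well above background on any sham array, were at least 10.5-fold (adjusted p 4.2e-06) and at least 5.20-fold higher (adjusted p 0.0021). Ccl7 rose by 2.61 ± 0.39 and the interferon-induced Cxcl10 by 2.92 ± 0.25. The resident chemokine Cxcl12 was not called on its brighter probe (-0.32 ± 0.11, adjusted p 0.076) and fell on its other probe (-0.96 ± 0.22, adjusted p 0.013). Among chemokine receptors, 10 of 15 were tested and 2 rose and 1 fell, with a median of -0.01 that was above 0 under each of the 6 other scalings and normalizations. Ccr10 fell (-0.68 ± 0.14). Ackr3, a scavenger of Cxcl12, rose by 0.45 ± 0.11, a call lost without ischemic array 1 or sham array 3 (adjusted p 0.067 and 0.076).

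The interleukin-1, interleukin-6 and TNF systems rose for 14 of 26 tested of 29 listed, none fell, and the median was 0.79. Il1b, the inflammatory cytokine interleukin-1 beta, stood at -0.90, -0.39 and -0.43 in ischemia, against -4.15, -3.41 and -3.56 in sham, and rose by 3.14 ± 0.29 (adjusted p 2.2e-05). Il1a, which signals through the same receptor and was detected on 1 of 3 sham arrays, rose by 2.42 ± 0.31. Il1r2, a decoy receptor for both, rose by 1.77 ± 0.25. Tnf itself was dim, at -3.80, -3.10 and -3.14 in ischemia, against -5.66, -4.49 and -4.60 in sham with 2 of 3 arrays above background, and rose by 1.57 ± 0.31. The receptors Tnfrsf12a (2.07 ± 0.18), Tnfrsf1b (1.31 ± 0.15), Tnfrsf1a (0.87 ± 0.11) and Il6r (0.84 ± 0.14) also rose. Il6, with 2 of 3 sham arrays above background, was not called (1.38 ± 0.49, adjusted p 0.092), and was called with the slope class as a block (1.72, adjusted p 0.0017).

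NF-kB subunits and their feedback inhibitors held 9 rises among 15 tested of 20 listed and no fall, with a median of 0.56. Zfp36, which destabilises cytokine mRNAs, was not well above background on any sham array and was at least 2.15-fold higher (adjusted p 2.9e-06). Rel, the subunit c-Rel, stood at -2.21, -1.73 and -1.85 in ischemia, against -4.10, -3.09 and -3.37 in sham, and rose by 1.59 ± 0.29 (adjusted p 0.0036). The groups did not overlap. Birc3, a ubiquitin ligase of the TNF receptor complex, rose by 2.15 ± 0.38, and Nfkbia, the inhibitor that NF-kB itself switches on, by 1.12 ± 0.16. The precursor subunits Nfkb2 and Nfkb1 rose by 0.96 ± 0.13 and 0.56 ± 0.08, and the inhibitor Tnip2 by 0.80 ± 0.08.

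NF-kB dimers bind a site of the form GGG, a pair of free bases and TTTCC, which was searched on both strands. The 250 bases before the start of Rel are shown because the gene was the NF-kB member with the largest rise among those whose window held the letters. They are from RefSeq (build GRCr8, chr14:101921939-101922188, minus strand), with the match, which lies on the opposite strand, in capitals.
Rel: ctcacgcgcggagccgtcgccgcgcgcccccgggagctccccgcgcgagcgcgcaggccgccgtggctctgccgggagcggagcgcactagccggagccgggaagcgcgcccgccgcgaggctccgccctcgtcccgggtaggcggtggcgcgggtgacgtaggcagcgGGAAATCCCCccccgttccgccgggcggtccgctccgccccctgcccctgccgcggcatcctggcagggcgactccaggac
The single match lies 81 bases before the start, and it overlaps no other match. The letters occurred in 350 of 27457 promoters (1.27%). Of the 9 genes that rose, 8 had a promoter sequence and 4 held the letters (Rel, Nfkbia, Nfkbiz and Nfkb2), and these were also the only matches among the 13 tested members with a sequence.

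Downstream signalling and innate immune genes showed smaller rises. In JAK-STAT signalling 5 of 21 tested of 23 listed rose and none fell, with a median of 0.06. The kinase Jak2 rose by 0.88 ± 0.12, the transcription factor Stat3 by 0.65 ± 0.10 and the feedback inhibitors Socs3 and Socs1 by 1.10 ± 0.22 and 0.54 ± 0.11. Epor, the receptor of the hormone tested in the study, stood at -4.37, -3.75 and -4.17 in ischemia, against -4.21, -3.86 and -3.38 in sham, and was not called (-0.28 ± 0.34, adjusted p 0.67). Its groups overlapped. Its ligand Epo was on the array but was not well above background on all arrays of any group, so it was not tested.

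Interferon response genes rose for 9 of 24 tested of 25 listed, none fell, and the median was 0.49. Gbp2, a guanylate-binding protein, stood at 2.11, 2.06 and 1.94 in ischemia, against -0.28, -0.10 and -0.66 in sham, and rose by 2.38 ± 0.12 (adjusted p 1.4e-07). The groups were far apart. The peptide transporter Tap1 rose by 1.25 ± 0.24, the ubiquitin-like Isg15 by 1.10 ± 0.17 and the factors Irf1 and Irf7 by 0.99 ± 0.14 and 0.83 ± 0.18. Pattern recognition and complement genes rose for 8 of 21 tested of 24 listed, none fell, and the median was 0.35. Cd14, the co-receptor for bacterial lipopolysaccharide, rose by 1.73 ± 0.18, Fcgr2b by 1.15 ± 0.16, Tlr2 by 1.05 ± 0.15 and the complement receptor C5ar1 by 0.79 ± 0.08.

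Neutrophil markers were higher on the same arrays. Their summed linear signal, relative to each array's 75th percentile, was 1.23 to 1.35 in ischemia against 0.408 to 0.707 in sham over 7 tested markers of 17 listed. The 3 that rose were S100a8, Il1r2 and Mmp9, and the latter pair are also reported here with the interleukin-1 and matrix genes. S100a8, a calcium-binding protein of neutrophils, stood at -1.34, -1.50 and -1.61 in ischemia, against -3.85, -2.97 and -3.43 in sham, and rose by 1.93 ± 0.39 (adjusted p 0.0066). Its partner S100a9 was not called (1.39 ± 0.58, adjusted p 0.16), and was with the slope class as a block (1.72, adjusted p 0.02). The granule and chemotaxis markers Ltf, Cxcr2, Mmp8, Fpr1, Mpo and Ngp were not well above background on all arrays of any group and were not tested. The part of neutrophils in the chemokine, cytokine and protease results was not tested.

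**Figure D3:**
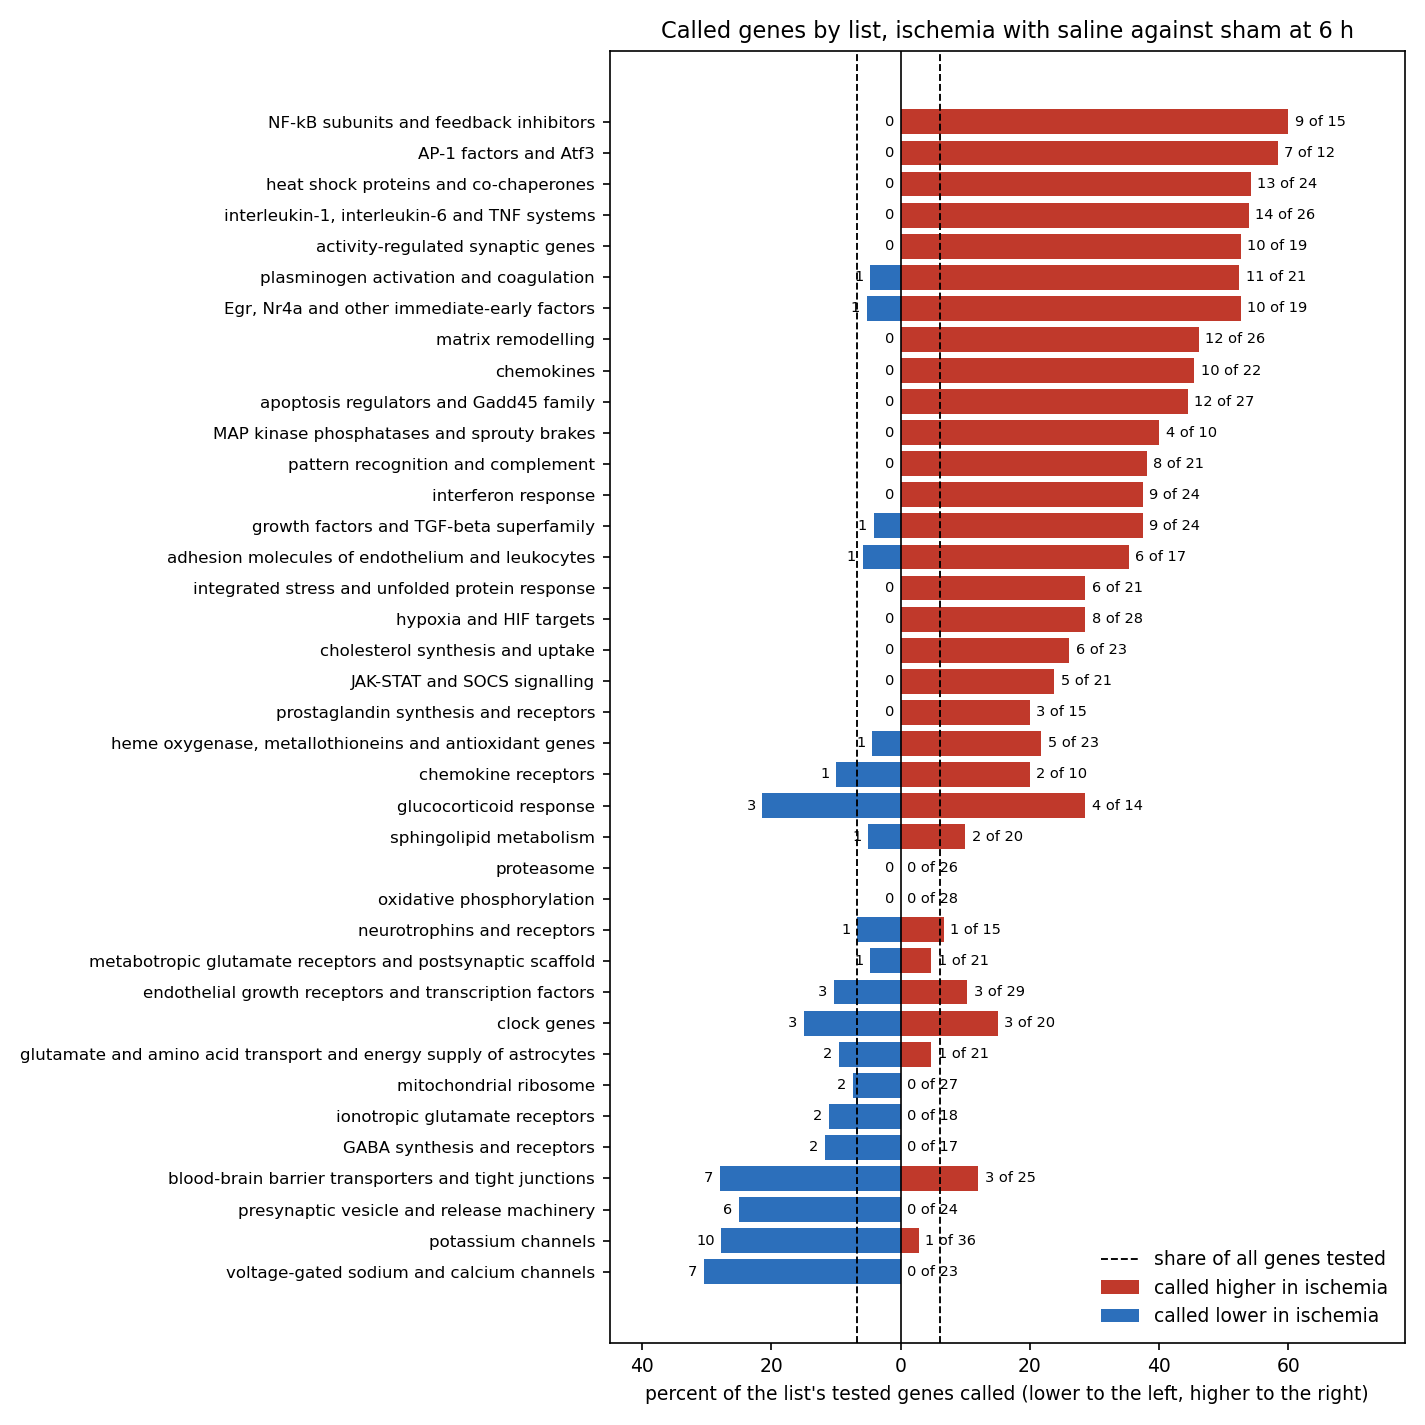
Percent of the tested genes of 38 lists called higher (red, to the right) and lower (blue, to the left) in ischemia, with the counts and, as dashed lines, the shares over all genes (6.16% higher, 6.81% lower). NF-kB genes (9 of 15), AP-1 factors (7 of 12) and heat shock genes (13 of 24) lie at the top, and sodium and calcium channels (7 of 23 lower) at the bottom.

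Adhesion molecules rose for 6 of 17 tested of 20 listed and 1 fell, with a median of 0.16. Sele, E-selectin, on which leukocytes roll, stood at -0.33, -0.61 and -0.52 in ischemia, against -5.27, -3.85 and -6.21 in sham with 1 of 3 arrays above background, and rose by 4.62 ± 0.51 (adjusted p 9.8e-05). Icam1, which arrests them, stood at 1.04, 1.16 and 1.43 in ischemia, against -0.77, -0.83 and -1.01 in sham, and rose by 2.08 ± 0.15. The groups lay apart for both, and the sham arrays of Sele scattered. The leukocyte integrin chain Itgb2 rose by 0.70 ± 0.14 and the hyaluronan receptor Cd44 by 1.20 ± 0.14, while Vcam1 was not called (0.16 ± 0.08, adjusted p 0.23).

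Plasminogen and coagulation genes rose for 11 of 21 tested of 22 listed and 1 fell, with a median of 0.30. Plau (urokinase) rose by 1.87 ± 0.23, its receptor Plaur by 1.27 ± 0.27 and Plat (tissue plasminogen activator) by 1.04 ± 0.13. Their inhibitor Serpinb2 stood at -1.75, -3.32 and -1.56 in ischemia, against -7.39, -6.59 and -5.96 in sham, and, being below background on every sham array, was at least 7.20-fold higher (adjusted p 0.0037). The endothelial anticoagulant receptors Procr and Thbd rose by 1.36 ± 0.15 and 0.95 ± 0.13, and the protease inhibitor Tfpi2 was at least 5.32-fold higher (adjusted p 2.4e-06). Adamts13, which cleaves von Willebrand factor, stood at -5.12, -4.50 and -5.72 in ischemia with 1 of 3 arrays above background, against -2.59, -4.01 and -3.55 in sham. Its fall of 1.73 ± 0.42 on the log2 scale (adjusted p 0.019) lost its call without ischemic array 1 or 3 or sham array 1 (adjusted p 0.053, 0.09 and 0.078).

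Matrix genes rose for 12 of 26 tested of 31 listed and none fell, with a median of 0.55. Timp1, an inhibitor of matrix proteases, stood at 3.26, 3.30 and 3.39 in ischemia, against 0.80, 0.53 and 0.51 in sham, and rose by 2.70 ± 0.19 (adjusted p 2.6e-06). Sdc1, a heparan sulphate proteoglycan, stood at 1.21, 1.29 and 1.45 in ischemia, against -0.75, -0.76 and -0.87 in sham, and rose by 2.11 ± 0.10. Both groups were tight and apart. The matricellular protein Ccn1 rose by 3.03 ± 0.26, the protease Adamts9 by 1.85 ± 0.17 and the gelatinase Mmp9 by 0.93 ± 0.14, and Adamts1 was at least 3.71-fold higher (adjusted p 0.00021). Spp1 (osteopontin) was spread over the ischemic arrays, at -0.24, 1.66 and 3.47, against -1.62, -1.64 and -0.55 in sham, and its rise of 2.90 ± 0.68 lost its call without sham array 1 or 2 (adjusted p 0.054 and 0.057).

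Growth factors rose for 9 of 24 tested of 30 listed and 1 fell, with a median of 0.07. Hbegf, a ligand of the EGF receptor, averaged -0.25 ± 0.27 in ischemia, against -2.27 ± 0.23 in sham (SD, n = 3 each), without overlap, and rose by 2.02 ± 0.17 (adjusted p 8.8e-06). The stress cytokine Gdf15, with 2 of 3 sham arrays above background, rose by 3.98 ± 0.47, and the EGF-family ligand Areg by 1.66 ± 0.27. Among angiogenic ligands, Vegfa rose by 0.52 ± 0.10 and Vegfc fell (-0.40 ± 0.09). Prostaglandin genes rose for 3 of 15 tested of 19 listed and none fell, with a median of -0.06 that turned positive under normexp, quantile and array median settings. The prostaglandin E synthase Ptges stood at 1.09, 0.94 and 0.87 in ischemia, against -1.42, -0.93 and -2.21 in sham, and rose by 2.49 ± 0.27.

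Hypoxia targets rose for 8 of 28 listed and tested and none fell, with a median of 0.12, and for 4 to 6 without 1 array in turn. Adm, the vasodilator adrenomedullin, stood at 1.55, 1.83 and 1.63 in ischemia, against -0.29, -0.40 and -0.67 in sham, and rose by 2.12 ± 0.16 (adjusted p 3.8e-06). P4ha1, a prolyl hydroxylase of collagen, rose by 0.57 ± 0.11 and the stress gene Ndrg1 by 0.50 ± 0.08. The glucose transporter Slc2a1 was not called (0.14 ± 0.08). The lactate dehydrogenase Ldha rose by 0.24 ± 0.07, a call lost without any 1 of 5 of the 6 arrays (adjusted p up to 0.12). Slc16a3, which exports lactate, rose by 1.60 ± 0.17.

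Among apoptosis regulators and the Gadd45 family, 12 of 27 tested of 30 listed rose and none fell, with a median of 0.29. The growth arrest genes Gadd45b, Gadd45g and Gadd45a rose by 2.57 ± 0.19, 2.31 ± 0.17 and 1.09 ± 0.10. Mcl1, which protects against apoptosis, stood at 1.39, 1.53 and 1.54 in ischemia, against 0.47, 0.30 and 0.37 in sham, and rose by 1.11 ± 0.07 (adjusted p 1.9e-06). The cell cycle inhibitor Cdkn1a (p21) rose by 1.21 ± 0.21 and the death receptor Fas by 0.92 ± 0.11. The classical members Bcl2 (-0.05 ± 0.25), Bax (-0.05 ± 0.08) and Bcl2l1 (0.18 ± 0.06) were not called.

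Housekeeping machinery gave few calls. None of 28 tested oxidative phosphorylation genes of 31 listed was called by limma, 1 had an unadjusted p below 0.05, and all lay between -0.23 and 0.08. None of 26 tested proteasome genes of 28 listed was called by limma, 3 had an unadjusted p below 0.05, and all lay between -0.08 and 0.20. Of 27 tested mitochondrial ribosomal proteins of 32 listed, 2 fell, beside 6.81% of all genes. They were Mrpl41 (-0.95 ± 0.13) and Mrpl36 (-0.20 ± 0.05), whose call was lost without ischemic array 3 or sham array 2 or 3 (adjusted p up to 0.07). Cholesterol genes differed from these lists: 6 of 23 listed and tested rose and none fell, with a median of 0.22. The synthesis enzymes Mvd (0.72 ± 0.10) and Idi1 (0.47 ± 0.08) led them. The rises numbered 4 or 5 without 1 array in turn and 3 in the authors' value table, and none was called with the array median scaling.

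Clock genes gave 3 rises and 3 falls among 20 tested of 21 listed. The rises numbered 1 with the slope class as a block, in the fit of the 6 arrays alone and without any 1 of 5 of the 6 arrays. The repressor Nfil3 rose by 1.45 ± 0.13, whereas Dbp (-0.77 ± 0.10) and Per2 (-0.73 ± 0.13) fell. Of 14 tested glucocorticoid response genes of 16 listed, 4 rose and 3 fell. Errfi1 rose by 0.75 ± 0.09, the mineralocorticoid receptor Nr3c2 fell (-0.39 ± 0.08), and Fkbp5, a sensitive glucocorticoid target, was not called on the brightest of its 3 probes (-0.45 ± 0.14, adjusted p 0.062) and fell on another (-0.44 ± 0.11, adjusted p 0.021). In sphingolipid metabolism 2 of 20 tested of 28 listed rose, 1 or none without any 1 of 5 of the 6 arrays, and 1 fell. Over all genes 6.16% rose and 6.81% fell. Degs2, a ceramide hydroxylase, stood at -2.59, -2.51 and -2.61 in ischemia, against -0.99, -1.02 and -0.93 in sham, a fall of 1.59 ± 0.11 on the log2 scale (adjusted p 1.9e-06). Its arrays were tight within each group and far apart between them.

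The other large falls included Srarp at -1.22, -1.37 and -1.68 in ischemia, against 0.18, -0.12 and -0.09 in sham (-1.41 ± 0.16, adjusted p 0.00014). Megf6 (-1.16 ± 0.13) and Tmem204 (-1.07 ± 0.08) fell on arrays that did not overlap. Nxpe1 and Ces1d were not well above background on any ischemic array and were at least 2.01-fold (adjusted p 0.0049) and at least 1.85-fold lower (adjusted p 0.017). Ces1d lost its call without ischemic array 3 or sham array 2 or 3 (adjusted p up to 0.076). Or2v1, above background on 1 of 3 ischemic arrays, fell (-1.29 ± 0.28), a call lost without ischemic array 3 (adjusted p 0.052).

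Ion channels held further falls. Of 36 listed and tested potassium channels, 10 fell and 1 rose, with a median of -0.17 against -0.09 over all genes, and 5 fell without sham array 2 or 3 and 6 without ischemic array 1. Kcnv1, a silent modifier subunit of neuronal channels, stood at 1.98, 1.81 and 1.96 in ischemia, against 2.69, 2.53 and 2.53 in sham, and fell by 0.67 ± 0.07 on the log2 scale (adjusted p 3.7e-05). Kcnj6, a G-protein-gated inward rectifier, was at -0.53 ± 0.09, the calcium-activated Kcnn2 at -0.50 ± 0.08 and Kcnh3 at -0.46 ± 0.07, and all were called. The exception was Kcnf1, a modifier subunit that rose by 0.73 ± 0.10. Sodium and calcium channels fell for 7 of 23 listed and tested and none rose, with a median of -0.23. The falls numbered 2 to 4 without 1 array in turn and 1 in the fit of the 6 arrays alone. Scn1a, the main sodium channel of fast-spiking interneurons, stood at 0.88, 1.03 and 0.95 in ischemia, against 1.62, 1.62 and 1.63 in sham, and fell by 0.67 ± 0.09 on the log2 scale, and Scn2a fell too (-0.34 ± 0.06). With the array median in place of the percentile none of these channel falls was called, and the medians of both lists stayed below 0.

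Presynaptic genes fell for 6 of 24 listed and tested and none rose, with a median of -0.15 that was above 0 only with the array median scaling. The falls numbered 3 or 4 without 1 array in turn and 2 in the fit of the 6 arrays alone. The calcium sensor Syt2 (-0.65 ± 0.12), the fusion protein Stx1a (-0.53 ± 0.10) and the vesicle protein Vamp1 (-0.45 ± 0.07) fell. Snap25, their abundant partner, fell by less (-0.24 ± 0.07), and its call was lost without any 1 of 5 of the 6 arrays (adjusted p up to 0.13). Of 18 listed and tested ionotropic glutamate receptor genes 2 fell, among them the AMPA receptor subunit Gria2 (-0.36 ± 0.07). Of 17 tested GABA genes of 19 listed 2 fell, and each of these calls was lost without any 1 of 5 of the 6 arrays. The falls in both receptor lists stand beside 6.81% of all genes. The medians of both lists, -0.10 and -0.09, lay near that of all genes, and turned positive with the array median scaling.

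The labelled cortex was checked against cell markers. The glutamate transporter Slc17a7 of cortical excitatory neurons stood at -0.01, -0.19 and 0.02 in ischemia, against 0.27, -0.05 and -0.16 in sham, and was not called (-0.08 ± 0.13). Excitatory markers summed to 30.3 to 31.4 in ischemia against 34.3 to 36.1 in sham, and 3 of 15 fell, including the transcription factors Neurod1 (-1.04 ± 0.19) and Neurod6 (-0.81 ± 0.16). The median of the list was -0.11. With the array median scaling none of these falls was called and the median turned positive (0.06). The sums use the percentile scaling, so they cannot show whether their gap would remain under the array median. Interneuron markers summed to 157 to 170 in ischemia against 137 to 148 in sham. Of 18 listed and tested 1 rose, beside 6.16% of all genes. It was Npy (0.37 ± 0.11), a call lost without any 1 of 5 of the 6 arrays. Gad1 (0.02 ± 0.11) and Pvalb (-0.41 ± 0.13) were not called. The interneuron and striatal lists share Penk (0.70 ± 0.23) and Tac1 (0.77 ± 0.26), so the sums of these lists are not separate observations. Striatal markers were present in both groups, with sums of 47.4 to 56.8 against 37.5 to 45.6 in sham. Of 14 striatal markers 3 rose, with a median of 0.55, and 8 with the slope class as a block. None rose without ischemic array 3, in the fit of the 6 arrays alone, with the array median, in the authors' value table or without the arrays of slope above 0.9, and 1 to 4 rose without another single array. Ppp1r1b (DARPP-32), a signalling protein of striatal neurons, stood at 0.80, 0.58 and 0.97 in ischemia, against 0.21, 0.20 and 0.28 in sham, and rose by 0.55 ± 0.12, a call lost without ischemic array 3 (adjusted p 0.06). Penk and Drd2 were not called as reported, and were with the slope class as a block (adjusted p 0.029 and 0.018). Of 24 alternatives, 7 called Penk and 6 called Drd2. The part of tissue composition in the neuronal results was not tested.

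Blood-brain barrier genes fell for 7 of 25 tested of 27 listed and rose for 3, with a median of -0.28, and 4 fell without sham array 1 or 2. Slco1a4, an organic anion transporter of brain endothelium, stood at -0.08, 0.08 and -0.11 in ischemia, against 1.31, 1.17 and 0.88 in sham, and fell by 1.16 ± 0.13 on the log2 scale (adjusted p 8.6e-05). Abcg2, a drug efflux pump, stood at -1.51, -1.31 and -1.27 in ischemia, against 0.11, -0.31 and -0.19 in sham, and fell by 1.23 ± 0.26. Neither overlapped between groups. The lipid transporter Mfsd2a (-0.37 ± 0.07) and the tight junction protein Ocln (-0.91 ± 0.16) fell. Cldn5, the main tight junction claudin, fell (-0.52 ± 0.13), and its call was lost without ischemic array 2 or 3 or sham array 1 or 2 (adjusted p up to 0.095). The efflux pump Abcb1a, with 1 of 3 ischemic arrays above background, fell (-1.22 ± 0.33), a call lost without any 1 of 5 of the 6 arrays (adjusted p up to 0.12). The lactate carrier Slc16a1 rose by 0.53 ± 0.07. With the array median scaling none of these falls was called and the median of the list stayed below 0.

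Vessel genes outside the barrier gave calls in both directions. Of 29 tested endothelial growth receptors and transcription factors of 32 listed, 3 rose and 3 fell, beside 6.16% and 6.81% of all genes. The median was -0.18 and turned positive with quantile normalization. Angpt2, which destabilises vessels, stood at 1.33, 1.09 and 1.16 in ischemia, against -0.14, 0.17 and -0.39 in sham, and rose by 1.31 ± 0.14 (adjusted p 7.3e-05). Its receptor Tek (Tie2) fell (-1.02 ± 0.19), as did the endothelial factors Sox18 (-0.77 ± 0.14) and Sox17 (-0.87 ± 0.19). The receptor Kdr was not called (0.49 ± 0.15), and was with the slope class as a block (adjusted p 0.029). Of 15 endothelial markers listed and tested, 3 fell (Slco1a4, Tek and Cldn5) and none rose, with a median of -0.29. Their sums overlapped, at 20.8 to 22.6 in ischemia against 21.6 to 26.7 in sham. The markers Pecam1 (0.02 ± 0.41) and Cdh5 (0.00 ± 0.30) were not called. Both were dim, with means in ischemia and sham of -3.89 and -3.91 for Pecam1 and -3.40 and -3.41 for Cdh5. Pericyte markers summed to 15.5 to 15.9 in ischemia against 16.4 to 18.8 in sham. The receptor Pdgfrb fell (-0.42 ± 0.09) and the filament protein Des rose by 0.82 ± 0.15.

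Glial markers diverged within cell types. Gfap, the filament protein of reactive astrocytes, stood at 1.96, 2.26 and 2.50 in ischemia, against 1.79, 2.09 and 1.69 in sham, and was not called (0.38 ± 0.18, adjusted p 0.23), with overlapping groups. Serpina3n, an acute-phase protein of reactive astrocytes, stood at 1.10, 0.77 and 1.98 in ischemia, against -3.24, -3.23 and -1.51 in sham, and rose by 3.95 ± 0.68 (adjusted p 0.0026). The gap junction protein Gjb6 fell (-0.72 ± 0.14). Of 17 tested microglial markers of 20 listed, 4 rose and 2 fell, with a median of 0.18, and 1 to 3 rose without 1 array in turn. Cd14 (1.73 ± 0.18), Cd74 (0.53 ± 0.13) and Aif1 (0.26 ± 0.08) were among the rises, and the call of Aif1 was lost without any 1 array. P2ry12, a receptor of resting microglia, stood at 1.01, 1.10 and 0.22 in ischemia, against 1.78, 1.75 and 1.76 in sham, and fell by 0.99 ± 0.21 on the log2 scale (adjusted p 0.01). Ischemic array 3 was the lowest. Tmem119, another resting marker, fell (-0.66 ± 0.15), a call lost without ischemic array 3 or sham array 1 (adjusted p 0.058 and 0.06), while Cx3cr1 was not called (0.06 ± 0.13). The myelin gene Ermn rose by 0.56 ± 0.11. The proteoglycan Cspg4, which is in both the oligodendrocyte precursor and the pericyte lists, fell (-0.45 ± 0.09). Mbp was not called on its brighter probe (0.21 ± 0.09, adjusted p 0.15) and rose by 0.30 ± 0.08 on the other (adjusted p 0.024). Sums of astrocyte, oligodendrocyte, microglial, lymphocyte and red cell markers overlapped between the groups. No lymphocyte, red cell or choroid plexus marker was called by limma, and none had an unadjusted p below 0.05.

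The change at 6 h was set against the change at 2 h, which has its own ischemic and sham arrays. At 6 h, 766 genes rose and 846 fell. At 2 h, 159 rose (1.28%) and 43 fell (0.346%). The difference of the changes was called for 241 genes, with 146 (1.17%) higher at 6 h and 95 (0.764%) lower, and for 233 (0.814%) and 177 (0.618%) of the probes. Without the arrays of slope above 0.9, which leaves 1 ischemic array at 6 h, limma called none of them (957 at an unadjusted p below 0.05), and with the array median scaling 2. Late genes included Sele, at 4.62 for 6 h and -0.66 for 2 h (difference 5.29 ± 0.73, adjusted p 0.0033), and Serpina3n, at 3.95 for 6 h and -0.70 for 2 h (difference 4.65 ± 0.96, adjusted p 0.032). Gbp2 was at 2.38 for 6 h and 0.24 for 2 h (difference 2.14 ± 0.17, adjusted p 5.9e-05), and Trib3 at 3.30 for 6 h and 0.69 for 2 h. Of 24 tested heat shock genes Hspa1a, Hspb1 and Hsph1 had a called larger change at 6 h, with Hspa1a at 6.71 for 6 h and 5.46 for 2 h (difference 1.24 ± 0.25, adjusted p 0.025).

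Several immediate-early genes showed the opposite order. Egr1 was at 0.20 for 6 h and 1.60 for 2 h (difference -1.41 ± 0.20, adjusted p 0.0044), and Nr4a1 at 0.55 for 6 h and 2.26 for 2 h (difference -1.72 ± 0.34). Nr4a2, Nr4a3, Fosl2, Klf6 and Dusp6 also had smaller changes at 6 h. Fos, at 2.65 for 6 h and 3.76 for 2 h, and Arc, at 1.56 for 6 h and 2.69 for 2 h, were not called in this test. Kcnv1 was lower in ischemia at 6 h (-0.67) and higher at 2 h (0.65), a difference of -1.32 ± 0.09 (adjusted p 3.3e-05), and Neurod6 had -0.81 for 6 h and 0.64 for 2 h (difference -1.45 ± 0.23).

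**Figure D4:**
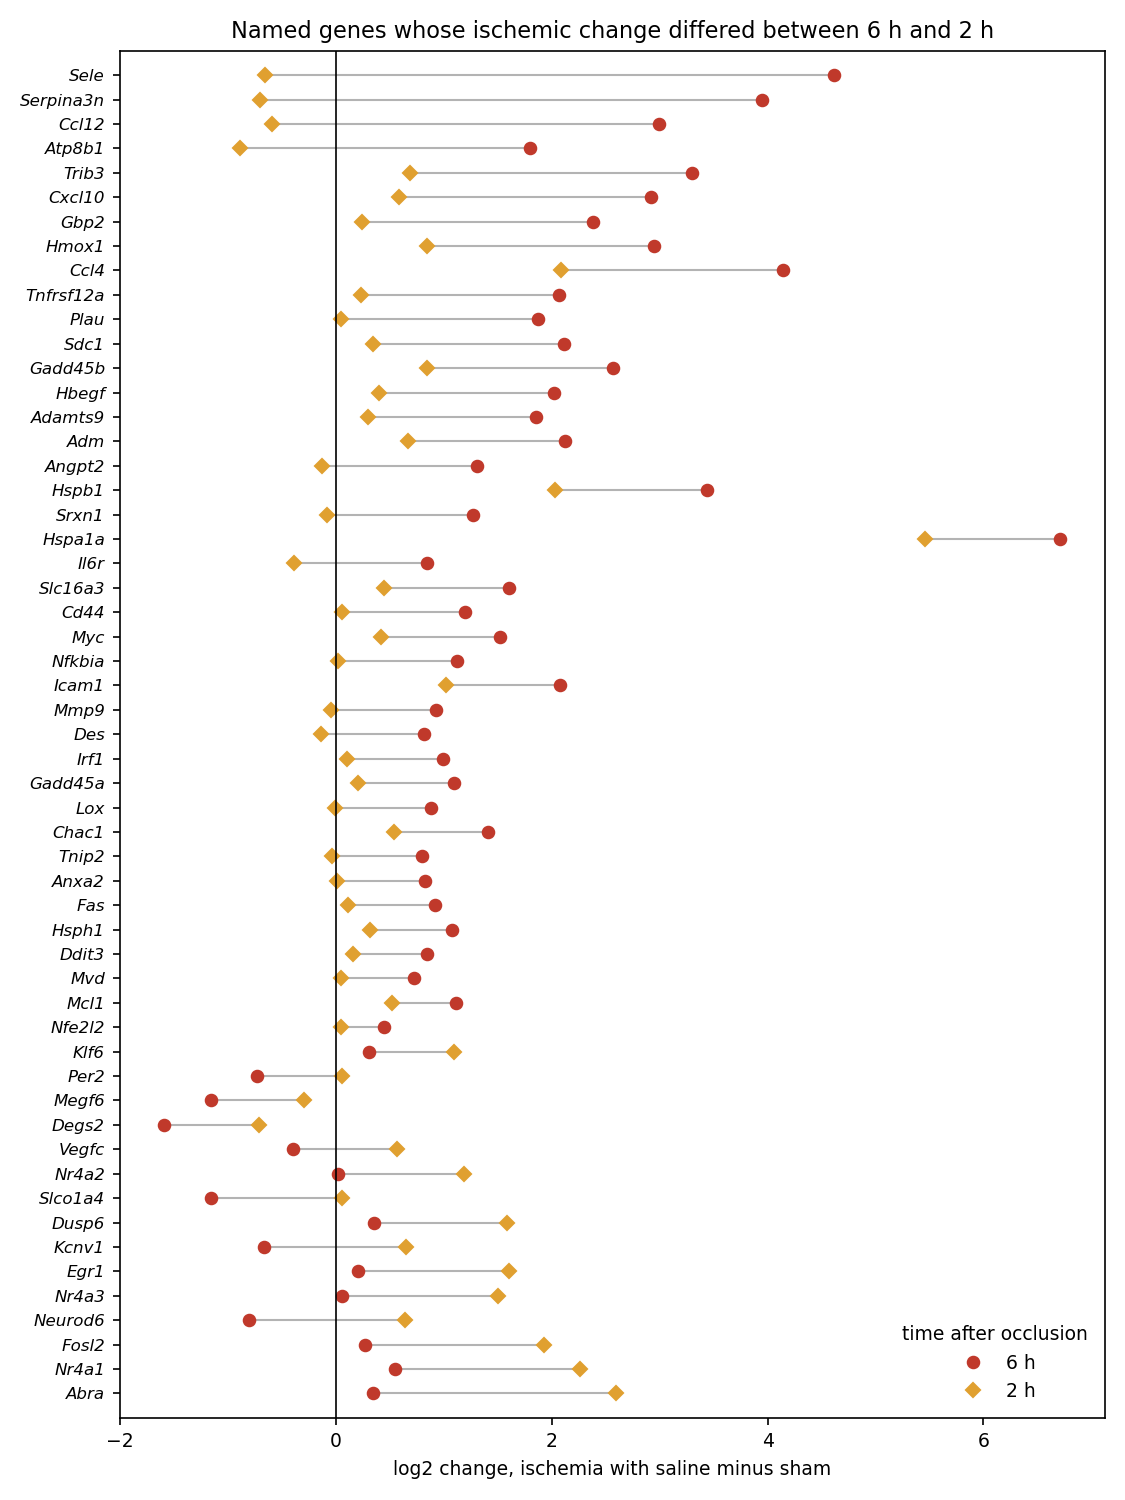
Log2 change of ischemia with saline minus sham (x axis) at 6 h (red circles) and 2 h (yellow diamonds) for 55 named genes whose change differed between the times. Sele and Serpina3n lie at 4.62 and 3.95 at 6 h and below 0 at 2 h, and Egr1, Nr4a1 and Fosl2 lie nearer 0 at 6 h. Ccl12, Ccl4 and Atp8b1 were not well above background on any sham array at 6 h, so their points carry no exact size.

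Ischemic rats given EPO were measured at 6 h against the same 3 sham arrays, so the comparisons share them and no test between them was made. With EPO, 1022 genes rose (8.22%) and 1344 fell (10.8%). The change of Hspa1a was 6.71 ± 0.17 with saline and 6.62 ± 0.17 with EPO, and that of Ccl2 was 4.93 ± 0.36 with saline and 5.32 ± 0.36 with EPO. Fosl2 was not called with saline (0.27 ± 0.17) and rose with EPO (1.17 ± 0.17), and Nr4a1 was at 0.55 ± 0.24 with saline and 1.32 ± 0.24 with EPO. Adamts13 was at -1.73 ± 0.42 with saline and -0.44 ± 0.42 with EPO, where it was not called. Epor was at -0.28 ± 0.34 with saline and 0.18 ± 0.34 with EPO, and was called in neither.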

How the data were processed

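Each array was one scanner file of spot intensities that Agilent Feature Extraction 9.1.1.1 had background-subtracted and detrended, per the file headers, with no scaling between arrays. The series' deposited table of log2 values, whose steps are not stated, differed from the log2 of those intensities by over 1e-06 in 38 values, by 0.336 at most, with column medians of 7.17 to 8.54, so its values are unscaled. Here log2 intensities of a probe's spots without outlier flags were averaged and the array's 75th percentile was subtracted. Of 41012 probes, 40667 had a usable value on all 18 arrays. Tested were 28637 that were well above background throughout 1 or more of the 6 groups, using limma 3.58.1 in R 4.3.3, in 1 model of 6 group means over 18 arrays (12 residual degrees of freedom). RefSeq gave gene names by accession for 10570 probes, by symbol for 5533 and by synonym for 3697, and 20867 stay unnamed here. A gene is its tested probe of highest mean signal. Of the called genes 491 had several tested probes, and where more than 1 of these was called the directions agreed. Probes that were not called were left out of this check, and some pointed the other way. Srxn1 was at 1.27 on its called probe and -1.05 on the other, and Syt1 at -0.26 on its called probe and 0.16 on another. No spot of these arrays was saturated. The genes named are the 12 largest rises and falls that also passed with the slope class as a block and did not overlap, up to 4 members of smallest p in each of 51 lists (920 genes tested), the 5 largest differences between times in each direction, some fixed genes, and members that account for a list. The members and lists were chosen with earlier results of these data known. A few members of the lists are counted but not reported here by name. Precision is limited by how few arrays there are. The pipeline was tested on simulated data.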

Additional observations from a re-analysis of the deposited data

Results flagged for a closer look

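The ischemic change at 6 h minus that at 2 h differed from 0 for 55 of the genes named here (limma, adjusted p below 0.05), with n = 3 arrays in each of the 4 groups. Each value in parentheses is that difference on the log2 scale. Chemokine, cytokine and interferon genes with a larger change at 6 h were Ccl12 (3.58), Cxcl10 (2.35), Gbp2 (2.14), Ccl4 (2.04), Tnfrsf12a (1.84), Il6r (1.22), Nfkbia (1.09), Irf1 (0.89) and Tnip2 (0.84). Adhesion, protease, matrix and vessel genes in the same direction were Sele (5.29), Plau (1.81), Sdc1 (1.77), Adamts9 (1.55), Angpt2 (1.44), Cd44 (1.15), Icam1 (1.06), Mmp9 (0.98), Des (0.96), Lox (0.89) and Anxa2 (0.82). Stress, chaperone and survival genes in the same direction were Trib3 (2.61), Hmox1 (2.12), Gadd45b (1.73), Hspb1 (1.42), Srxn1 (1.35), Hspa1a (1.24), Gadd45a (0.89), Chac1 (0.88), Fas (0.81), Hsph1 (0.75), Ddit3 (0.68), Mcl1 (0.59) and Nfe2l2 (0.41). The acute-phase gene, growth factors, transporters and others in the same direction were Serpina3n (4.65), Atp8b1 (2.69), Hbegf (1.62), Adm (1.45), Slc16a3 (1.15), Myc (1.10) and Mvd (0.67). Immediate-early genes and kinase inhibitors with a change at 6 h below that at 2 h were Nr4a1 (-1.72), Fosl2 (-1.66), Nr4a3 (-1.44), Egr1 (-1.41), Dusp6 (-1.24), Nr4a2 (-1.17) and Klf6 (-0.78). Others below their 2 h change were Abra (-2.26), Neurod6 (-1.45), Kcnv1 (-1.32), Slco1a4 (-1.22), Vegfc (-0.98), Degs2 (-0.88), Megf6 (-0.87) and Per2 (-0.80). Abra, a muscle-expressed activator of actin signalling, had a change of 0.34 at 6 h and 2.60 at 2 h, the lowest of the differences here. Atp8b1 was not well above background on any sham array at 6 h, and was above it on 2 of 3 ischemic ones. Ccl4 and Ccl12 were likewise not well above background on any sham array at 6 h, so their differences carry no exact size. Without the arrays of slope above 0.9, which leaves 1 ischemic array at 6 h, limma called none of these differences over all probes (1879 at an unadjusted p below 0.05).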

How the results depend on the processing

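All counts here are of probes called by limma in ischemia against sham at 6 h, 3164 as reported (1372 higher and 1792 lower), and in the difference between times, 410 as reported (233 with the 6 h change above that at 2 h and 177 below). Without the arrays of slope above 0.9, which leaves 1 ischemic array at 6 h that is assumed to vary like the other groups, 202 probes were called (166 higher, 36 lower), and 0 in the difference between times (0 in each direction, 1879 at an unadjusted p below 0.05). A fit of the 6 arrays alone called 1343 (690 higher, 653 lower), and a fit of the 12 saline and sham arrays called 113 below in the difference between times. The slope class as a block gave 3733 (1530 higher, 2203 lower). With the slide as a fixed block 109 were below in the difference between times, and as a random block (correlation within a slide 0.204) 756 were called there (407 above, 349 below) and 2517 were lower in the 6 h comparison. Quantile normalization called 1140 lower, and the percentile over probes counted once, an alternative added after seeing the data, 1169. With the array median 297 were called (286 higher, 11 lower), and 3 in the difference between times (3 above, 0 below, 823 at an unadjusted p below 0.05). The authors' value table without scaling gave 1265 (849 higher, 416 lower) and, between times, 230 (40 below). With no filter on dim probes 2093 were called (1075 lower), and 218 between times (140 above, 78 below). Array weights called 6404 (2183 higher, 4221 lower), and 1224 between times (605 above, 619 below). At an adjusted p below 0.01, 1308 were called (712 higher, 596 lower), and with a change of at least 2-fold 306 (263 higher, 43 lower). Leaving out 1 array in turn gave 1749 to 2226 calls (848 to 1081 higher, 901 to 1200 lower), and 198 to 301 between times (121 to 188 above, 77 to 114 below). No setting reversed the direction of a called gene named here. The replicate block gave 2785 calls (1244 higher, 1541 lower) and 302 between times (181 above, 121 below). Same-numbered ischemic and sham arrays had deviations correlated at 0.535, 0.838 and -0.708. Across all pairs of an ischemic and a sham array, the correlation was positive only within a slope class. These correlations therefore cannot show whether samples of the same number were paired, and the labels give only the number. The causes of these differences were not tested, beyond fewer arrays or probes where a setting removes them. Signal over background limits what dim probes can show: 61.2 to 75.4% of probes were well above it on the ischemic arrays and 64.5 to 76.7% on the sham arrays.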
